A study of Homo sapiens with 12 samples.

Results

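The genes described here are 9 genes of energy buffering and oxygen supply in muscle: the creatine kinases CKM, CKMT2 and CKB, myoglobin (MB), adenylate kinase 1 (AK1), the creatine transporter SLC6A8, the adenine nucleotide carriers SLC25A4 and SLC25A5, and the cytochrome c oxidase subunit COX8A. They were taken by name, as the rows of the expression table whose gene symbol is one of these. All 9 were found among the 61806 genes of the table, and all 9 were among the 19505 genes that passed the filter on low counts. They were measured by RNA-seq in H1, an established human embryonic stem cell line that was wild type in all groups, during differentiation toward cardiomyocytes. The static group, NP-IWP2, was not passaged and was treated with IWP2, an inhibitor of WNT secretion. The group P-DF was passaged on Day 2 and left to differentiate spontaneously in DF medium with no IWP2. The group P-IWP2 was likewise passaged on Day 2, with IWP2 added. All groups began with the WNT activator CHIR99021, according to the study's methods. Each treatment was sampled on Day 12 and on Day 16 with 2 libraries, which gave 6 groups and 12 libraries. P-DF differed from NP-IWP2 in both passaging and IWP2, so these cannot be told apart in that comparison, whereas P-IWP2 and NP-IWP2 both had IWP2. The study also describes a ROCK inhibitor and insulin as additions when cells were dissociated, and the labels do not say which of these the passaged samples received, so passaging and such additions cannot be told apart here. Static cells without IWP2 were not analysed here. The labels do not say whether the 2 libraries of a group came from separate cultures, so the p-values measure the spread between these libraries, which may be technical.

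Creatine kinases move a phosphate group between ATP and creatine, so that phosphocreatine holds a reserve of high-energy phosphate close to the myofibrils and the ion pumps. CKMT2 charges creatine at the mitochondrial inner membrane with ATP exported by the adenine nucleotide carriers, and the cytosolic enzymes made from CKM and CKB use phosphocreatine to restore ATP where it is spent. The developing heart expresses mainly the brain-type subunit CKB early, and the muscle-type subunit CKM and the mitochondrial enzyme CKMT2 rise as cardiac muscle matures.

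The counts of a library summed to between 14885589 and 19176239, and the 9 genes held between 106 counts (CKMT2) and 8633 counts (SLC25A4) in any library. Levels are given as FPKM, the read count scaled by exon length and by the total count of the library, which sets genes of different length on 1 scale. The labels name a library kit for long reads, and the read type could not be settled from the table. If a read covered a whole transcript, dividing by length would not be called for, so levels and shares that set 1 gene against another depend on this scaling, while comparisons of a gene between groups do not. Cardiomyocyte markers were high in all libraries, with a summed FPKM of 9 genes of 3119 to 5743 in the static libraries. That sum was 5497 to 9149 in the passaged libraries other than replicate 5 of P-IWP2 on Day 12. The skeletal myogenic regulators MYOD1, MYOG, MYF5, MYF6 and PAX7 summed to at most 0.47 FPKM in any library, with MYF5 listed at 0 in all. Replicate 5 of P-IWP2 on Day 12 stood apart from the other passaged libraries, with 134 FPKM of 5 epicardial markers against at most 0.28 and 672 FPKM of 5 fibroblast markers against at most 30.6. Its cardiomyocyte markers summed to 2360 FPKM. Tests of the 9 genes that rest on this library, or on a spread estimated with it, are therefore given with and without it. Single-day tests of genes from related lists are given with all libraries only. In bulk RNA, fewer cells of a type and less RNA of a gene per cell cannot be told apart.

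Passaged P-DF cells held more muscle-type and mitochondrial creatine kinase RNA and less CKB RNA than static cells. Over both days, with the day as a term in the model, P-DF differed from static cells in all 9 genes in edgeR's quasi-likelihood test at a Benjamini-Hochberg adjusted p under 0.05. CKM, CKMT2, MB, AK1, SLC6A8, SLC25A4, SLC25A5 and COX8A were higher and CKB was lower. Of all genes tested, 33.5% passed in this comparison, 14.6% higher and 18.9% lower. The 9 genes had a median log2 fold change of 0.62, against -0.003 over all genes tested. All 9 also passed with DESeq2, with library totals in place of TMM, with limma on FPKM, without the filter, and when any of the 8 libraries was left out.

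**Figure D1:**
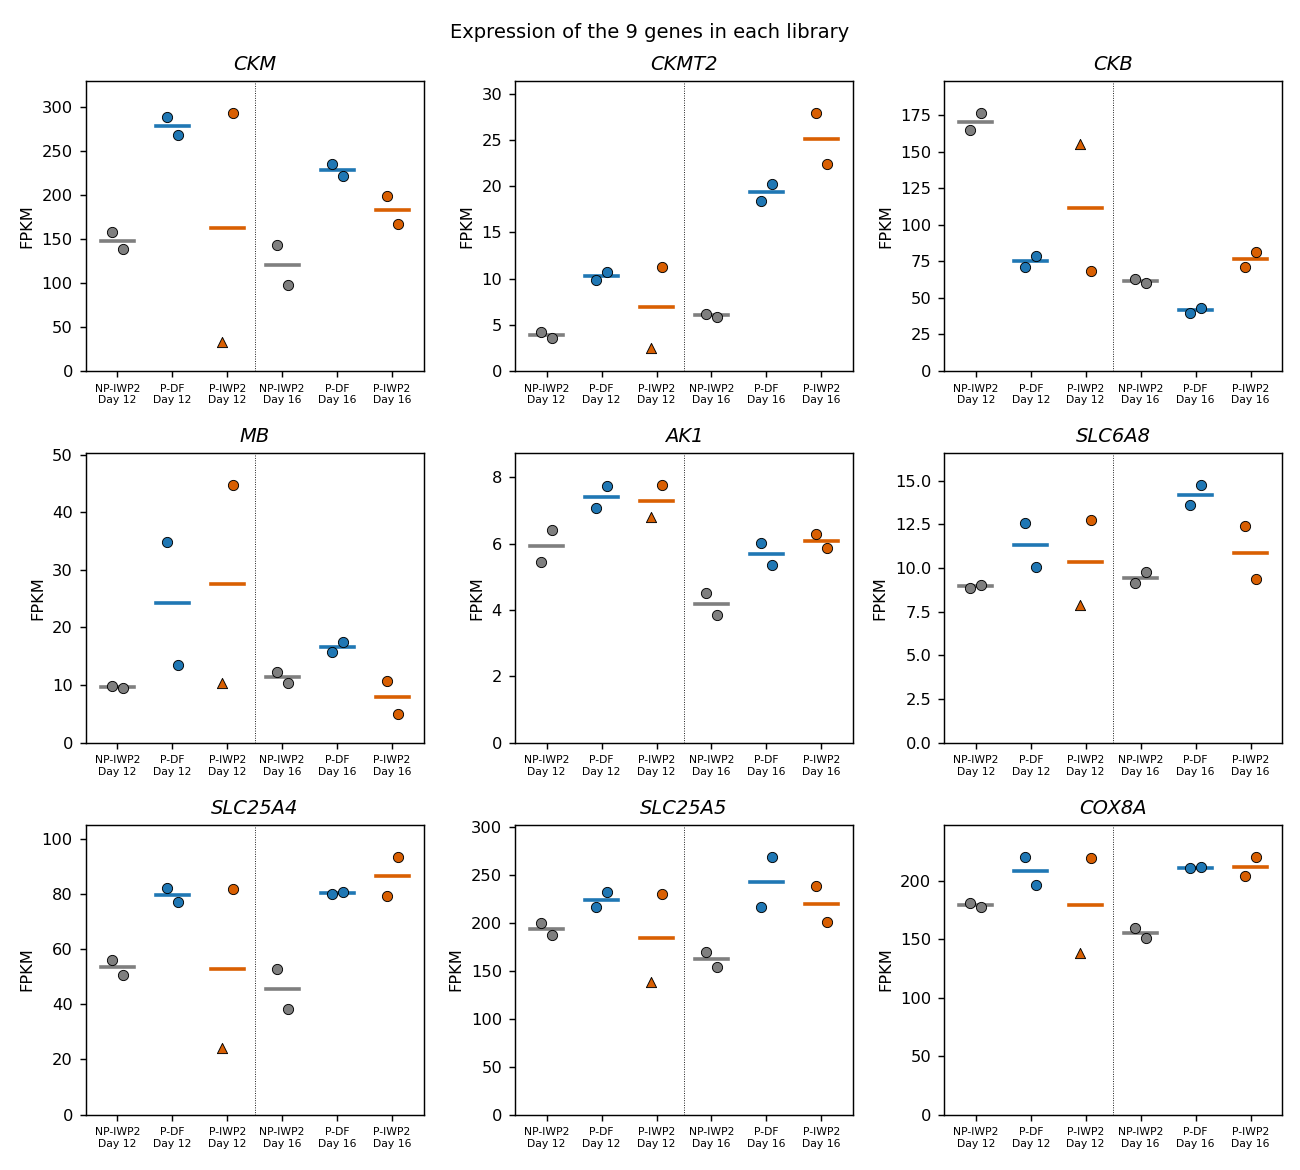
FPKM of each gene (y axes, from 0) in the 12 libraries by treatment and day (x axes), with a point per library and a bar at the mean of each group of 2. The triangle is replicate 5 of P-IWP2 on Day 12, which lies below both static libraries of that day for CKM, CKMT2, CKB, SLC6A8, SLC25A4, SLC25A5 and COX8A, while both P-DF libraries lie above both static libraries on each day for every gene but CKB.

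CKM encodes the muscle subunit of cytosolic creatine kinase. On Day 12 it stood at 158 and 139 FPKM in the 2 NP-IWP2 libraries, 288 and 268 FPKM in P-DF, and 33.1 and 293 FPKM in P-IWP2. By Day 16 it was at 143 and 97.7 FPKM in NP-IWP2, 236 and 221 FPKM in P-DF, and 198 and 167 FPKM in P-IWP2. The P-DF libraries were above the static libraries on both days, and of the P-IWP2 libraries only replicate 5 of Day 12 was below them. Over both days CKM was higher in P-DF than in static cells by a log2 fold change of 1.07 (SE 0.13, adjusted p = 0.00031 in edgeR's quasi-likelihood test, 4 libraries against 4). By group mean, CKM was highest in P-DF on Day 12 (278 ± 14.2 FPKM, SD, n = 2), followed by P-DF on Day 16 (229 ± 10.1 FPKM). This order depends on the scaling, since with the TMM factors that the tests use these groups overlapped, at 266 ± 18.0 and 261 ± 8.95 FPKM. P-IWP2 on Day 16 (183 ± 22.2 FPKM) came next. P-IWP2 on Day 12 (163 ± 184 FPKM) could not be placed, because its libraries spanned the whole range. Static cells were lowest, at 148 ± 13.5 FPKM on Day 12 and 120 ± 32.1 FPKM on Day 16, and these last groups overlapped.

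CKB encodes the brain-type subunit, which is broadly expressed and found in the early heart. On Day 12 its level was 165 and 176 FPKM in NP-IWP2, 71.0 and 79.1 FPKM in P-DF, and 155 and 68.2 FPKM in P-IWP2. On Day 16 its level was 63.1 and 60.1 FPKM in NP-IWP2, 39.9 and 43.3 FPKM in P-DF, and 71.4 and 81.8 FPKM in P-IWP2. P-DF was below static on both days, whereas P-IWP2 was above static on Day 16, with no overlap in either case. Over both days CKB fell by 0.72 on the log2 scale in P-DF (SE 0.15, adjusted p = 0.0046 in edgeR). The static cells themselves dropped between the days, from 171 ± 8.15 to 61.6 ± 2.13 FPKM (SD, n = 2), so that static cells of Day 16 were below P-DF cells of Day 12.

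CKM and CKB together describe the cytosolic isoform balance. The share of CKM in the summed FPKM of CKM and CKB was 48.9% and 44% in static cells on Day 12 and 80.2% and 77.2% in P-DF. On Day 16 it was 69.4% and 61.9% in static cells, 85.5% and 83.6% in P-DF, and 73.6% and 67.1% in P-IWP2. The P-DF libraries thus lay above the static libraries on both days, while P-IWP2 and static libraries overlapped on Day 16. In P-IWP2 on Day 12 the share was 17.5% in replicate 5 and 81.1% in replicate 6, the lowest of all 12 libraries beside a value within the P-DF range of the 2 days. On Day 12 both genes together made 319 ± 5.33 FPKM in static cells and 353 ± 8.49 FPKM in P-DF (SD, n = 2). On Day 16 it was 182 ± 34.2, 270 ± 7.70 and 259 ± 14.8 FPKM in NP-IWP2, P-DF and P-IWP2. These shares are given without a test, since they combine genes chosen with results known.

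**Figure D2:**
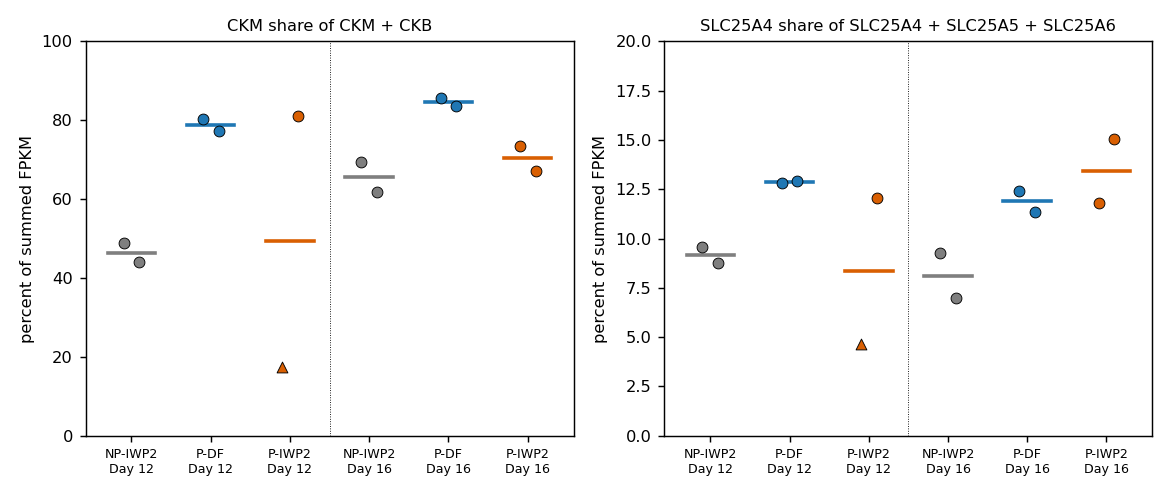
Share of CKM in the summed FPKM of CKM and CKB (left, percent) and of SLC25A4 in the summed FPKM of SLC25A4, SLC25A5 and SLC25A6 (right, percent, axis to 20) in each library by treatment and day, with a bar at the group mean. P-DF lies above static on both days in both panels, and the triangle, replicate 5 of P-IWP2 on Day 12, has the lowest share in both (17.5% and 4.63%).

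The upstream sequences of CKM, CKMT2, CKB and MB are shown because CKB fell in P-DF while the other 3 rose. Each is the 250 bases before the gene's start in RefSeq, build GRCh38.p14, 5′ to 3′ on the gene's strand, with matches to the E-box (CANNTG) and to the MEF2 consensus in capitals. CKM lies at chr19:45322876-45323125 on the minus strand, CKMT2 at chr5:81233072-81233321 on the plus strand, CKB at chr14:103522831-103523080 on the minus strand and MB at chr22:35623355-35623604 on the minus strand.
CKM: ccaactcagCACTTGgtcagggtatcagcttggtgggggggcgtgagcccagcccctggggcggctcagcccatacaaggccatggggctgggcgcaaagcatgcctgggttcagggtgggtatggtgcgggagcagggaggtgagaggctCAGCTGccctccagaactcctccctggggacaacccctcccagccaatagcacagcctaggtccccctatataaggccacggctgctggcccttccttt
CKMT2: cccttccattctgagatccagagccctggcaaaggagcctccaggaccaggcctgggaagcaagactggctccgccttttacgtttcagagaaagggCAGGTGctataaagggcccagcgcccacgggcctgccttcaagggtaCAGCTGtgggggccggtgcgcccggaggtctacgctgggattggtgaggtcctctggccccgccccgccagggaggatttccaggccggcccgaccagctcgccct
CKB: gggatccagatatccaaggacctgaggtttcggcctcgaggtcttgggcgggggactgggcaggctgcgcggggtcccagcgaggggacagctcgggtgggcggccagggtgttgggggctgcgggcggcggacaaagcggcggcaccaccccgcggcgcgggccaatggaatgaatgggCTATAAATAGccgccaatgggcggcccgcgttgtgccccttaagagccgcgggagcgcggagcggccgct
MB: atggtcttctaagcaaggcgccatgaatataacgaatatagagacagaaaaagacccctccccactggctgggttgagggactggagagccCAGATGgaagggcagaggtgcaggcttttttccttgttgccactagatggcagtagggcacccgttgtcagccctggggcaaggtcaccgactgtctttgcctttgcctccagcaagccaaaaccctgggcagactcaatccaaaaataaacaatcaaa

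Both strands were searched. CKM and CKMT2 each held 2 E-boxes in these 250 bases, MB held 1, and CKB held 0, while 61.8% of 35116 promoters of the same length held at least 1. SLC6A8, which was higher in P-DF, also held 0. AK1 held 1, and SLC25A4, SLC25A5 and COX8A held 2 each. CKB held 1 match to the MEF2 consensus, as did AK1, a motif found in 2.80% of promoters, and this match overlaps the TATAAA of the same promoter. TATAAA was also found in CKMT2, AK1 and SLC25A5 (10.7% of promoters hold it). AAGGTCA, a core motif bound by estrogen-related receptors, was found in MB alone among the 9 genes (3.44% of promoters). None of the 9 held a CArG box (1.16% of promoters). The GC content was 64.4% in CKM, 65.6% in CKMT2, 70.8% in CKB and 51.6% in MB, with a median of 58.0% over all promoters. For MB the RefSeq start lies 14597 bases inside the outermost start in the table, so these bases belong to 1 of several starts. The matches describe the letters and were not tested as binding sites.

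CKMT2 encodes the sarcomeric mitochondrial creatine kinase and had the largest log2 fold change of the 9 genes in P-DF over both days. On Day 12 it stood at 4.19 and 3.57 FPKM in NP-IWP2, 9.87 and 10.7 FPKM in P-DF, and 2.51 and 11.3 FPKM in P-IWP2. The Day 16 levels were 6.19 and 5.83 FPKM in NP-IWP2, 18.4 and 20.2 FPKM in P-DF, and 27.9 and 22.4 FPKM in P-IWP2. Apart from replicate 5 of Day 12, every passaged library was above every static library, whatever the day. The log2 fold change of P-DF over NP-IWP2 was 1.71 over both days (SE 0.12, adjusted p = 7.3e-06 in edgeR's quasi-likelihood test). On Day 16 alone the means were 3.22-fold apart in P-DF and 4.18-fold apart in P-IWP2.

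MB encodes myoglobin, which binds oxygen in the cytosol of heart and oxidative skeletal muscle. On Day 12 it stood at 9.78 and 9.49 FPKM in NP-IWP2, 34.9 and 13.5 FPKM in P-DF, and 10.3 and 44.7 FPKM in P-IWP2. On Day 16 it stood at 12.3 and 10.4 FPKM in NP-IWP2, 15.8 and 17.4 FPKM in P-DF, and 10.8 and 5.00 FPKM in P-IWP2. P-DF was above static on both days without overlap, but its Day 12 libraries were further apart than any static pair, and P-IWP2 overlapped static on Day 16. MB was higher in P-DF over both days by a log2 fold change of 1.10 (SE 0.27, adjusted p = 0.012 in edgeR).

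AK1 encodes the cytosolic adenylate kinase, which makes ATP and AMP from ADP, and SLC6A8 encodes the transporter that brings creatine into the cell. AK1 stood at 5.46 and 6.43 FPKM in NP-IWP2, 7.07 and 7.73 FPKM in P-DF, and 6.81 and 7.77 FPKM in P-IWP2 on Day 12. By Day 16 it was at 4.51 and 3.84 FPKM, 6.01 and 5.35 FPKM, and 6.29 and 5.87 FPKM in the same order. All passaged libraries were above the static libraries of their day, but with TMM factors AK1 in replicate 5 of Day 12 (5.59 FPKM) was between the static libraries (4.95 and 5.73 FPKM). SLC6A8 stood at 8.86 and 9.02 FPKM in NP-IWP2, 12.6 and 10.1 FPKM in P-DF, and 7.90 and 12.7 FPKM in P-IWP2 on Day 12. The Day 16 levels were 9.16 and 9.74 FPKM, 13.6 and 14.7 FPKM, and 12.4 and 9.34 FPKM in that order. P-DF was above static on both days, while 1 P-IWP2 library on each day was within or below the static range. With TMM factors both P-IWP2 libraries of Day 16 were above static for SLC6A8, at 14.1 and 11.5 against 9.27 and 9.12 FPKM. Over both days the log2 fold change of P-DF over NP-IWP2 was 0.53 for AK1 (SE 0.12, adjusted p = 0.0073) and 0.62 for SLC6A8 (SE 0.11, adjusted p = 0.0018) in edgeR.

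SLC25A4 and SLC25A5 encode carriers that exchange ADP and ATP across the mitochondrial inner membrane, SLC25A4 being the isoform of heart and skeletal muscle. SLC25A4 stood at 56.1 and 50.6 FPKM in NP-IWP2, 82.2 and 76.9 FPKM in P-DF, and 24.0 and 81.9 FPKM in P-IWP2 on Day 12. On Day 16 it stood at 52.8 and 38.2 FPKM, 80.1 and 80.7 FPKM, and 79.3 and 93.4 FPKM in that order. Every passaged library but replicate 5 of Day 12 exceeded every static library. SLC25A5 stood at 200 and 188 FPKM in NP-IWP2, 217 and 232 FPKM in P-DF, and 139 and 230 FPKM in P-IWP2 on Day 12. By Day 16 it was at 170 and 154 FPKM, 217 and 269 FPKM, and 238 and 201 FPKM in that order. The difference from static cells was smaller for SLC25A5 than for SLC25A4 relative to its level, with a log2 fold change over both days of 0.56 (SE 0.13, adjusted p = 0.0085) against 0.85 (SE 0.13, adjusted p = 0.0012) in edgeR, and this contrast between the genes was not tested. The share of SLC25A4 in the summed FPKM of SLC25A4, SLC25A5 and the third carrier SLC25A6 was 9.59% and 8.78% in static cells on Day 12 and 12.8% and 12.9% in P-DF. On Day 16 it was 9.26% and 6.98% in static cells, 12.4% and 11.3% in P-DF, and 11.8% and 15.1% in P-IWP2. Passaged and static libraries did not overlap in this share except for replicate 5, at 4.63%.

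COX8A encodes a small nuclear subunit of cytochrome c oxidase, the last complex of the respiratory chain. It stood at 181 and 178 FPKM in NP-IWP2, 220 and 196 FPKM in P-DF, and 138 and 219 FPKM in P-IWP2 on Day 12. The Day 16 levels were 160 and 151 FPKM, 211 and 212 FPKM, and 204 and 220 FPKM in that order. Passaged libraries other than replicate 5 were above all static libraries. COX8A had the smallest log2 fold change of the 9 genes in P-DF over both days, at 0.49 (SE 0.09, adjusted p = 0.0037 in edgeR).

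Static cells also held RNA of other cell types that was low in P-DF. The summed FPKM of 7 hepatic markers was 406 to 840 in static libraries and 5.96 to 20.1 in passaged libraries other than replicate 5, and 5 fibroblast markers summed to 679 to 1215 against 18.0 to 30.6 FPKM. The cardiomyocyte markers mostly moved the other way, 7 of 9 being higher in P-DF over both days (14.6% of all genes were), with a median log2 fold change of 0.73. On Day 12 alone 0 of 9 passed (4.01% of all genes). Their sums overlapped there, at 5033 to 5743 FPKM in static cells and 5655 to 5678 FPKM in P-DF. On Day 16, 4 passed as higher and 1 as lower (15.3% of all genes passed). MYH6 was lower in P-DF on that day, at 109 and 71.0 FPKM against 436 and 417 FPKM in static cells. The part of these shifts in the differences of the 9 genes was not tested. Expressed relative to TNNT2, the cardiac troponin T gene, in each library, CKM, CKMT2 and SLC25A4 were above static in both P-DF libraries on both days. CKB was below static on both days on that scale. CKMT2 was 0.0378 and 0.0368 of TNNT2 in static cells on Day 12 against 0.0786 and 0.0739 in P-DF, and on Day 16 it was 0.0827 and 0.0664 against 0.174 and 0.257. MB, AK1 and COX8A overlapped between P-DF and static on both days on that scale. SLC6A8 overlapped on Day 12 and was above on Day 16, and SLC25A5 was below static on Day 12 and overlapped on Day 16. TNNT2 was chosen as the scale after these values were seen, and the result depends on that choice. On Day 16 TNNT2 stood at 74.8 and 87.8 FPKM in static cells and 106 and 78.7 FPKM in P-DF. The marker ACTN2 rose more, from 78.9 and 53.0 FPKM in static cells to 188 and 160 FPKM in P-DF. Relative to ACTN2, CKM and SLC25A4 were below static in P-DF on that day. The orders given above therefore hold for TNNT2 alone.

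**Figure D3:**
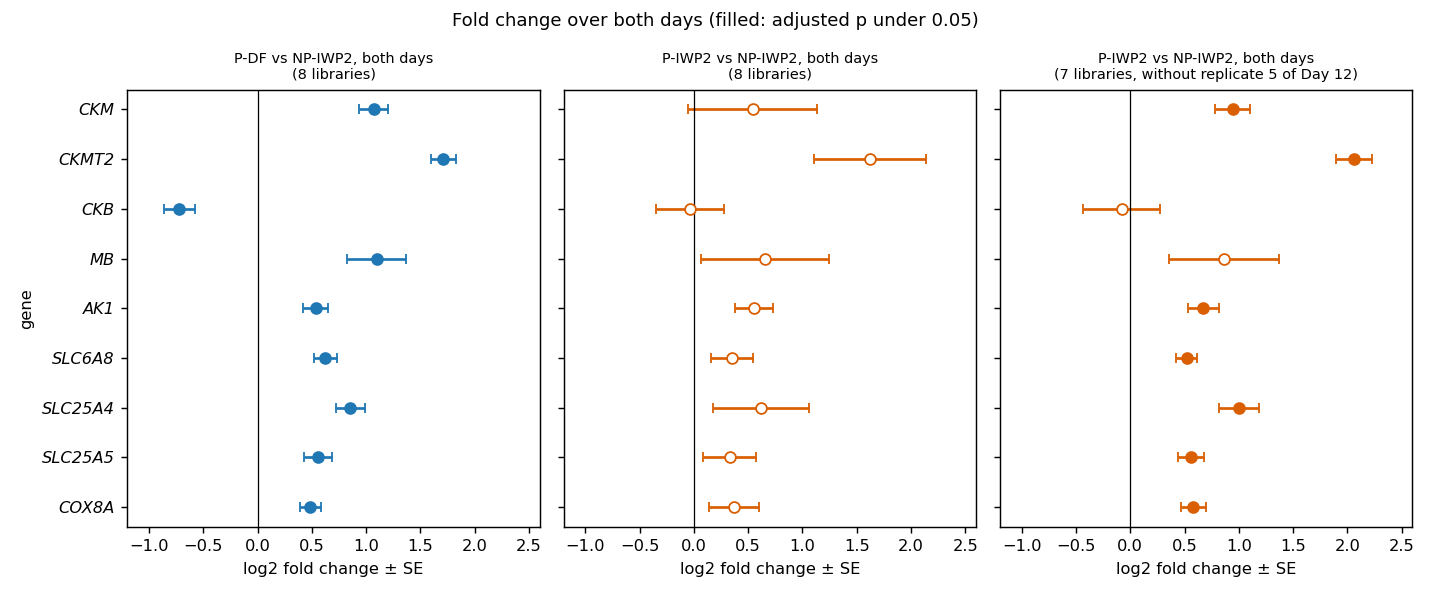
Log2 fold change (x axes) of each gene (y axis) against NP-IWP2 over both days, with SE bars from edgeR, and filled points for an adjusted p under 0.05. For P-DF (left) all 9 points are filled, for P-IWP2 with all libraries (middle) none is, and without replicate 5 of Day 12 (right) 7 are, with CKB and MB unfilled.

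Read day by day, in a model of all 12 libraries in 6 groups, fewer of the differences passed. In P-DF on Day 12, 0 of 9 genes passed in edgeR (4.01% of all genes did), 2 had an unadjusted p under 0.05, and DESeq2 called 2. CKMT2 stood at a log2 fold change of 1.49 (SE 0.55, adjusted p = 0.16) and CKB at -1.10 (SE 0.26, adjusted p = 0.052) there. Without replicate 5 of P-IWP2, which has no part in this contrast but entered the estimate of the spread, 6 of 9 passed, against 23% of all genes. CKM, CKMT2, MB, SLC6A8 and SLC25A4 were then higher and CKB lower, with a log2 fold change of 1.49 for CKMT2 (SE 0.13, adjusted p = 5.9e-06) and -1.10 for CKB (SE 0.12, adjusted p = 3.4e-05). On FPKM alone, both P-DF libraries were above both static libraries for 8 of the 9 genes on Day 12, which held for 24.6% of all genes tested, and for 8 of 9 on Day 16, which held for 18.8%.

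In P-DF on Day 16, CKMT2 (log2 fold change 1.91, SE 0.54, adjusted p = 0.044) and AK1 (0.67, SE 0.19, adjusted p = 0.041) were higher in edgeR, 2 of 9 genes against 15.3% of all genes, 5.39% of them higher. Neither call held when any 1 of the 4 libraries compared was left out, and limma on FPKM called 0. Without replicate 5 of P-IWP2 on Day 12, 7 of 9 were higher, against 34.1% of all genes called, with CKB at -0.34 (SE 0.12) and MB at 0.78 (SE 0.36, adjusted p = 0.12) as the exceptions. SLC25A4 was then higher by a log2 fold change of 1.04 (SE 0.17, adjusted p = 0.00047).

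For P-IWP2, which shares the static libraries with the comparison of P-DF, the outcome turned on replicate 5 of Day 12. Over both days 0 of 9 genes passed with all libraries in edgeR (2.47% of all genes; 2 of 9 at an unadjusted p under 0.05, and 1 with DESeq2), and 7 of 9 passed without it (25.2% of all genes). The 7 were CKM, CKMT2, AK1, SLC6A8, SLC25A4, SLC25A5 and COX8A, all higher, led by CKMT2 at 2.06 (SE 0.17, adjusted p = 0.00016). CKB stood at -0.08 (SE 0.35, adjusted p = 0.90) there, since it was below static on Day 12 and above on Day 16. On Day 12, 0 of 9 passed with both libraries (1.66% of all genes; 2 of 9 at an unadjusted p under 0.05, and 0 with DESeq2). With replicate 6 alone for that group, assumed to vary like the other groups, 6 of 9 passed (16% of all genes), with CKM at 1.07 (SE 0.20), MB at 2.30 (SE 0.41) and CKB at -1.23 (SE 0.16). With replicate 5 alone the direction of CKM was the opposite, at -2.29, and 5 of 9 passed (14.7% of all genes).

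On Day 16, CKMT2 (log2 fold change 2.33, SE 0.55, adjusted p = 0.021) and AK1 (0.81, SE 0.19, adjusted p = 0.019) were higher in P-IWP2 than in static cells in edgeR, 2 of 9 genes against 17.1% of all genes, 7.15% of them higher. At most 1 of the 9 genes passed when a library of this contrast was left out. When replicate 5 of Day 12 was left out, 8 of 9 were higher (36.4% of all genes called). CKB was among them, at 0.60 (SE 0.12, adjusted p = 0.0020), and MB was the exception, at -0.27 (SE 0.37, adjusted p = 0.61). Both P-IWP2 libraries of Day 16 were above both static libraries in FPKM for 7 of the 9 genes, which held for 16.2% of all genes.

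The passaged treatments were also compared with each other, which sets cells with and without IWP2 side by side after passaging. On Day 12, 0 of 9 genes and 0% of all genes passed in edgeR, with 2061 genes at an unadjusted p under 0.05, of which 0 were among the 9, and 173 genes called by DESeq2. With replicate 5 alone for P-IWP2, 8 of 9 passed there (30.5% of all genes), and with replicate 6 alone 0 of 9 and 0% of all genes did in edgeR, with 621 genes at an unadjusted p under 0.05. On Day 16, 0 of 9 genes and 0% of all genes passed, with 1567 genes at an unadjusted p under 0.05 and 112 called by DESeq2. CKB was the 1 of the 9 genes with an unadjusted p under 0.05 on Day 16. Its log2 fold change of P-IWP2 over P-DF was 0.93 (SE 0.26, adjusted p = 0.42), and without replicate 5 of Day 12 it was 0.93 (SE 0.12, adjusted p = 0.0035), the 1 gene of 9 that then passed among 2.58% of all genes. MB lay below both P-DF libraries in both P-IWP2 libraries on that day, at a log2 fold change of -1.05 (SE 0.67, adjusted p = 0.75).

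Between Day 12 and Day 16, with all libraries in the model, CKB fell by 1.36 on the log2 scale in static cells (SE 0.26, adjusted p = 0.039 in edgeR), the 1 gene of 9 that passed there among 1.98% of all genes. This call was lost when any of the 4 libraries of the contrast was left out, and the drop was 1.36 with an adjusted p of 2.9e-05 without replicate 5 of P-IWP2. CKMT2 rose in P-IWP2 by a log2 fold change of 2.20 (SE 0.55, adjusted p = 0.020), the 1 gene of 9 that passed there among 27% of all genes with all libraries in the model. This call was lost without either Day 16 library of P-IWP2, and 7 of 9 passed without replicate 6 of Day 12, when 48.7% of all genes passed. Without replicate 5 of Day 12 the rise of CKMT2 was 1.45 (SE 0.16, adjusted p = 5.0e-05). Without that library SLC6A8 and SLC25A5 also passed as higher on Day 16 in P-DF, and MB as lower in P-IWP2.

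In P-DF 0 of 9 genes passed between the days (13.6% of all genes; 2 of 9 at an unadjusted p under 0.05, and 0 with DESeq2), with CKMT2 at 1.17 (SE 0.53, adjusted p = 0.17). Without replicate 5 of P-IWP2, 2 of 9 passed in static cells (18.3% of all genes), 4 in P-DF (30.8%) and 3 in P-IWP2 (25.1%). CKMT2 was higher on Day 16 in all 3 treatments in that fit, by 0.74 in static cells (SE 0.14) and 1.17 in P-DF (SE 0.12). CKB was lower on Day 16 in static cells and in P-DF (-0.59, SE 0.12) and higher in P-IWP2 (0.47, SE 0.15, adjusted p = 0.038). MB passed in P-IWP2, where Day 12 is then 1 library, at -2.22 (SE 0.42, adjusted p = 0.0022).

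Whether the difference between passaged and static cells changed between the days was tested as an interaction, which for P-DF covers passaging and IWP2 together. With all libraries 0 of 9 genes passed for P-DF (0.482% of all genes; 0 of 9 at an unadjusted p under 0.05, and 0 with DESeq2) and 0 of 9 for P-IWP2 (1.84%; 1 of 9 at an unadjusted p under 0.05). CKB stood closest, at 1.26 for P-IWP2 (SE 0.37, adjusted p = 0.10), and DESeq2 called it there. Without replicate 5, CKB passed for P-DF at 0.76 (SE 0.17, adjusted p = 0.017; 8.09% of all genes passed). It also passed for P-IWP2 at 1.83 (SE 0.20, adjusted p = 0.00019; 8.33% of all genes). MB passed for P-IWP2 at -2.58 (SE 0.56, adjusted p = 0.013), again with 1 library for Day 12. With replicate 5 alone for Day 12, 8 of 9 passed for P-IWP2 (31.1% of all genes). Without replicate 5, CKB thus lay further below static on Day 12 than on Day 16 in P-DF. In P-IWP2 it then lay below static on Day 12 and above on Day 16. With all libraries neither change passed in edgeR.

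The genes of the same pathways, taken from lists set up by function, moved unevenly in P-DF over both days. Of all genes tested, 14.6% were higher and 18.9% lower in this comparison. Among 13 tested cytochrome c oxidase subunits other than COX8A, 10 were higher and 1 lower in edgeR, with a median log2 fold change of 0.50 against -0.003 over all genes. Among 7 other mitochondrial carriers and channels, 5 were higher and 0 lower (median 0.41). Of 6 AMPK subunits, 3 were higher and 0 lower (median 0.34). Of 9 other adenylate kinases and AMP deaminases, 2 were higher and 2 lower (median 0.02). In the list of creatine synthesis and other creatine kinases, with 4 genes tested, 1 was higher and 2 lower (median -0.40). The other tissue globin tested, CYGB, was lower.

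**Figure D4:**
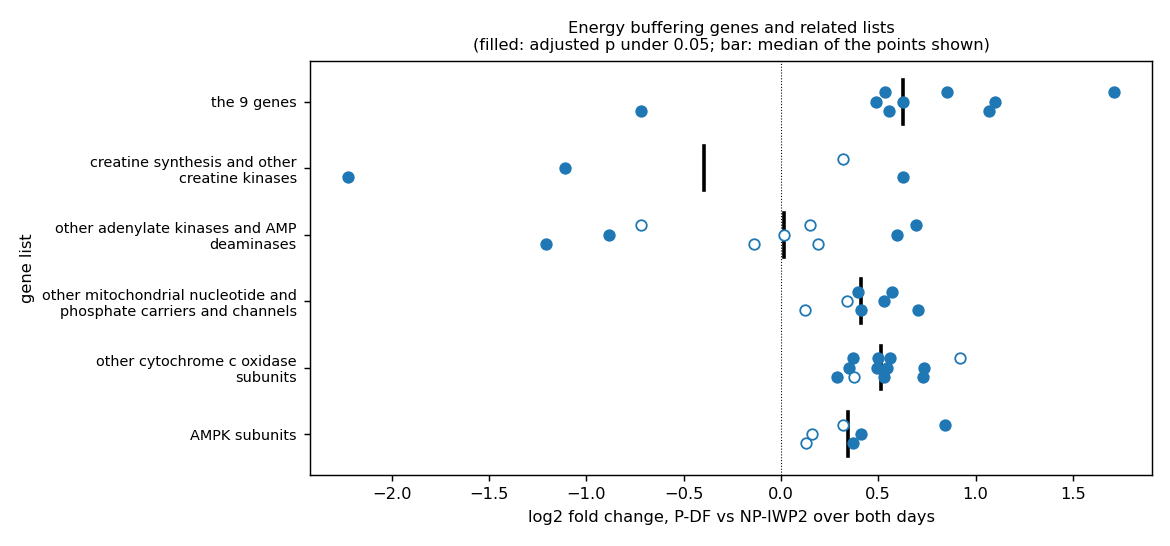
Log2 fold change of P-DF against NP-IWP2 over both days (x axis) for the 9 genes and the genes of related lists (y axis), filled for an adjusted p under 0.05, with a bar at the median of the points shown. COX6B2, listed at 0 in all P-DF libraries, is left out of the plot, and the subunits of cytochrome c oxidase that are shown all lie above 0 while creatine synthesis genes lie on both sides.

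The genes of creatine supply moved in different directions. GATM, which makes the creatine precursor guanidinoacetate, stood at 25.2 and 31.0 FPKM in static cells and 4.64 and 2.59 FPKM in P-DF on Day 12, and at 19.1 and 20.1 FPKM against 5.47 and 5.56 FPKM on Day 16. Its libraries did not overlap, and GATM fell by 2.22 on the log2 scale over both days (SE 0.27, adjusted p = 0.00026 in edgeR). It was also high in replicate 5 of P-IWP2 on Day 12, at 19.6 FPKM. GAMT, which methylates guanidinoacetate to creatine, was higher in P-DF by 0.63 (SE 0.10, adjusted p = 0.0014). SLC16A12, a creatine transporter of the plasma membrane, fell by 1.11 (SE 0.18, adjusted p = 0.0013). These 3 genes were named after their values were seen. CKMT1A and CKMT1B, near-identical copies of the ubiquitous mitochondrial creatine kinase between which reads cannot be divided with certainty, were listed at no more than 0.29 FPKM in any library. Whether reads shared by these copies were dropped was not tested, so their level was not set against that of CKMT2.

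The AMPK catalytic subunit PRKAA2 stood at 7.71 and 5.96 FPKM in static cells, 17.4 and 17.5 FPKM in P-DF, and 18.7 and 16.5 FPKM in P-IWP2 on Day 16. It had log2 fold changes on Day 16 of 1.58 in P-DF (SE 0.16, adjusted p = 0.00060) and 1.63 in P-IWP2 (SE 0.16, adjusted p = 0.00048) in edgeR. On Day 12 its log2 fold changes were 0.10 in P-DF (adjusted p = 0.74) and -0.21 in P-IWP2 (adjusted p = 0.73). AMPK senses the AMP that adenylate kinase makes. The regulatory subunit PRKAB2 was higher by 0.52 and 0.50 (adjusted p = 0.038 and 0.041) on Day 16, where Day 12 had -0.20 and -0.44 (adjusted p = 0.44 and 0.23), and PRKAG2 was higher on Day 16 by 0.76 in P-IWP2 (adjusted p = 0.043). Of 6 AMPK subunits tested, 2 were higher on Day 16 in P-DF and 3 in P-IWP2, with 0 lower. Of 9 other adenylate kinases and AMP deaminases, 1 was higher and 2 lower in each passaged treatment. Of 7 other mitochondrial carriers and channels, 1 was higher and 0 lower in each. Of all genes, 15.3% passed in P-DF and 17.1% in P-IWP2. The mitochondrial matrix enzyme AK3 was higher on Day 16, by 0.91 (adjusted p = 0.029) for P-DF and 0.98 for P-IWP2 (adjusted p = 0.021). AK4, a matrix protein induced in hypoxia, fell by 1.12 (adjusted p = 0.013) and fell by 0.85 (adjusted p = 0.034), and the AMP deaminase AMPD2 fell by 1.02 (adjusted p = 0.012) and fell by 0.80 (adjusted p = 0.029). The phosphate carrier SLC25A3 was higher on Day 16 by 0.68 and 0.70 (adjusted p = 0.032 and 0.027), against -0.01 and -0.13 on Day 12 (adjusted p = 0.99 and 0.89). AK4 was also lower on Day 12, by a log2 fold change of -1.29 in P-DF (adjusted p = 0.020) and with an adjusted p of 0.036 in P-IWP2, while AK3 (0.47 and 0.26) and AMPD2 (-0.74 and -0.08) did not.

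Of the 13 other cytochrome c oxidase subunits tested, 2 were higher and 1 lower in P-DF on Day 16 in edgeR. In P-IWP2, 4 were higher and 1 lower on that day. Of all genes, 15.3% and 17.1% passed in these comparisons. COX7B was higher by 0.91 for P-DF and 0.96 for P-IWP2 (adjusted p = 0.033 and 0.026), and COX7C by 0.68 in P-DF (adjusted p = 0.047). COX6B1 was higher by 0.87 in P-IWP2 (adjusted p = 0.030). The muscle isoform COX7A1 was low, at 0.09 and 0.11 FPKM in static cells and 0.76 and 1.16 FPKM in P-IWP2 on Day 16 (adjusted p = 0.032). On Day 12 static cells had 1.15 and 0.31 FPKM of COX7A1, and its log2 fold changes were -0.82 in P-DF and -0.65 in P-IWP2 (adjusted p = 0.57 and 0.85). COX6B2, the testis isoform, was the exception in direction. It had 55 to 67 counts in each static library and 0 in the P-DF libraries of both days, which makes it at least 77.7-fold lower against a floor of 3 counts over the P-DF libraries. The list's median was 0.50 with COX6B2 at that bound too. CYGB, cytoglobin, stood at 3.31 and 3.25 FPKM in static cells and 0.02 and 0.12 FPKM in P-DF on Day 16, a log2 fold change of -5.20 (SE 1.08, adjusted p = 0.014).

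The 9 genes varied together to different degrees over the 12 libraries, which share groups, days and the outlying replicate 5, so correlations of log2 CPM are given as descriptions. SLC25A4 and COX8A were the closest pair (Pearson's r = 0.98), and CKM and SLC25A4 had r = 0.93. CKB was negatively correlated with each of the other 8, from -0.06 with AK1 to -0.72 with SLC6A8. Of all tested genes with a symbol, those most like CKM were ASPH, KLHDC3 and PEBP1 (r = 0.97 to 0.98). The genes most like CKMT2 were DLD, MT-CO2 and GINM1 (0.99 each). CKB was most like CPSF1, EXOC3L1 and DPP7 (0.94 to 0.96), and MB most like OR7E14P, C5orf38 and IRX1 (0.94 to 0.96). AK1 was most like TRAPPC9, ATP13A3-DT and PPP2R5A (0.92 to 0.93), and SLC6A8 most like TMTC1, SORD and TMEM47 (0.97 to 0.99). SLC25A4 was most like MDH1, GFM2 and DYSF, SLC25A5 most like NNT, CS and MAPK9, and COX8A most like ATP5PD, GFM2 and NDUFA4 (all 0.99). CS is citrate synthase, DLD is a subunit of the pyruvate and oxoglutarate dehydrogenases, MDH1 is the cytosolic malate dehydrogenase, and ATP5PD is a subunit of ATP synthase.

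In the table's coordinates, which match GRCh38, the genes lie on 8 chromosomes. CKM (ENSG00000104879) spans chr19:45306413-45322875, CKMT2 (ENSG00000131730) chr5:81233320-81266398, CKB (ENSG00000166165) chr14:103519667-103522833 and MB (ENSG00000198125) chr22:35606764-35637951. AK1 (ENSG00000106992) spans chr9:127866486-127877675, SLC25A4 (ENSG00000151729) chr4:185143266-185150382 and COX8A (ENSG00000176340) chr11:63974620-63976543. SLC6A8 (ENSG00000130821) at chrX:153687926-153696588 and SLC25A5 (ENSG00000005022) at chrX:119468422-119471396 are both on the X chromosome. AK1 shares 894 of its 2593 exon bases with a read-through gene on the same strand (ENSG00000257524), and COX8A shares 175 of 494 with a noncoding gene on the same strand (ENSG00000256100). SLC25A5 shares 205 of 1555 exon bases with its antisense gene, and SLC6A8 shares 22 of 5697 with PNCK on the other strand. How reads in shared exons were counted is not given in the sources used here, so the values of these 4 genes are less certain. The overlapping genes held at most 2.92 FPKM in any library. The pseudogenes SLC25A5P1 to SLC25A5P9 and SLC6A10P held 0 to 5 counts per library.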

How the data were processed

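RNA was sequenced from 12 libraries of H1 cells in 6 groups. Reads were trimmed with cutadapt 1.9.1, aligned with HISAT2 2.0.1 and counted per Ensembl gene with HTSeq 0.6.1, per the labels. The authors deposited 1 table with raw counts and FPKM of 61806 genes, and each deposited FPKM equals the count divided by exon length and by the summed counts of the library. Tests on the counts used edgeR 4.0.16 under R 4.3.3 (TMM, filterByExpr, quasi-likelihood test, adjusted p threshold 0.05 by Benjamini-Hochberg over 19505 genes). The 6 groups of all 12 libraries formed 1 model, and comparisons over both days used 8 libraries with the day as a term. The alternatives were DESeq2 1.42.0, limma 3.58.1 on log2(FPKM + 1), library totals in place of TMM, no filter, only the groups compared, a replicate block, and leaving out each library. The named genes are the 9 genes, the 3 genes most correlated with each over the 12 libraries, and up to 4 genes per list called on Day 16 in each passaged treatment. The 9 genes, lists and tests were chosen with earlier results of these data known. The code was tested on simulated data. Depth was 14885589 to 19176239 counts per library. No batch is given in the labels. Promoter bases were taken from RefSeq (GRCh38.p14).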

Additional observations from a re-analysis of the deposited data

How the results depend on the processing

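The comparison of P-DF with NP-IWP2 over both days kept 9 of 9 genes past the threshold in every alternative run. Of 1287 log2 fold changes recomputed under an alternative, 52 changed sign. Of those, 0 had passed in the reported fit and 6 passed in the alternative, and the cause was not tested. Library totals in place of TMM moved the median log2 fold change of all genes to -0.16 in P-DF over both days, -0.25 in P-DF on Day 16 and -0.31 in P-IWP2 on Day 16. With 2 libraries per group and a shared spread, replicate 5 of P-IWP2 on Day 12 decided most counts of single days. The number of genes of the 9 that passed is given here by setting.

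Each count of the 9 is followed by the share of all genes that passed in the same fit. With DESeq2 it was 2 (8.22%) for P-DF on Day 12, 4 (18.4%) for P-DF on Day 16, 5 (20.1%) for P-IWP2 on Day 16, 1 (7.63%) for P-IWP2 over both days and 1 (7.31%) for the interaction of P-IWP2. Without the filter, when 40332 genes were tested, it was 5 (7.7%) and 7 (11.6%) for P-DF on Day 12 and Day 16, 3 (3.79%) and 7 (12.3%) for P-IWP2 on these days, 1 (3.73%) for P-IWP2 over both days and 2 (4.18%) and 2 (1.6%) for P-IWP2 against P-DF. It was also 2 (5.07%), 3 (9.5%) and 6 (15.9%) between the days in NP-IWP2, P-DF and P-IWP2, and 5 (6.77%) for the interaction of P-IWP2. Library totals gave 1 (17.6%) and limma on FPKM 0 (15.3%) for P-DF on Day 16. With only the groups compared it was 9 (28.1%) and 9 (35.8%) for P-DF on Day 12 and Day 16, 8 (26.2%) for P-IWP2 on Day 16 and 1 (1.69%) for P-IWP2 against P-DF on Day 16. It was then 2 (26%), 4 (32.2%) and 0 (0%) between the days in NP-IWP2, P-DF and P-IWP2, and 1 (12.2%) for the interaction of P-DF.

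Whether the replicate numbers pair the libraries could not be settled. The correlation over genes of equal numbers' deviations on Day 12 and Day 16 was 0.08, -0.002 and -0.03 in NP-IWP2, P-DF and P-IWP2. With 2 libraries per group each value rests on a single difference per day, so it cannot decide this. With the replicate block the number that passed between the days was 3 for P-IWP2 (23.9% of all genes), 0 for P-DF (9.52%) and 0 for NP-IWP2 (0.79%), and 0 for the interactions of P-DF (0.0615%) and P-IWP2 (1.99%).

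With 1 library left out it ranged from 0 to 7 for P-IWP2 over both days, while the share of all genes that passed ranged from 0.759% to 25.2%. In the model of 6 groups, leaving out a library left 1 library in its group. Ranges of the counts are therefore not given for single days, between the days or for the interactions.

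Fold changes that reversed with 1 library left out had these log2 ranges. For P-IWP2 against NP-IWP2 on Day 12 they were -2.29 to 1.07 for CKM, -0.76 to 1.63 for CKMT2, -0.032 to 2.30 for MB, -0.31 to 0.60 for SLC6A8, -1.28 to 0.71 for SLC25A4, -0.62 to 0.34 for SLC25A5 and -0.51 to 0.38 for COX8A. On Day 16 the range was -0.85 to 0.14 for MB, and over both days -0.17 to 0.94 for CKM, -0.22 to 0.27 for CKB and -0.17 to 1.04 for MB. For P-IWP2 against P-DF on Day 12 they were -3.29 to 0.078 for CKM, -2.26 to 0.14 for CKMT2, -0.13 to 0.83 for CKB, -1.45 to 1.01 for MB, -0.34 to 0.074 for AK1, -0.74 to 0.17 for SLC6A8, -1.95 to 0.045 for SLC25A4, -0.91 to 0.041 for SLC25A5 and -0.81 to 0.078 for COX8A. On Day 16 they were -0.034 to 0.32 for SLC25A4, -0.26 to 0.070 for SLC25A5 and -0.067 to 0.17 for COX8A. Between the days they were -0.54 to 0.12 for CKM, -0.43 to 0.15 for SLC25A4 and -0.19 to 0.0020 for COX8A in NP-IWP2, and -0.10 to 0.030 for CKM and -0.83 to 0.56 for MB in P-DF. In P-IWP2 they were -0.39 to 2.98 for CKM, -0.49 to 0.47 for CKB, -2.22 to 0.12 for MB and -0.055 to 0.36 for AK1. For the interactions they were -0.15 to 0.52 for CKM and -1.18 to 0.21 for MB in P-DF, and -0.21 to 3.16 for CKM and -0.13 to 0.78 for SLC6A8 in P-IWP2.

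In P-IWP2 against NP-IWP2 on Day 12, library totals gave -0.0108 for SLC25A4 and -0.0044 for COX8A, and limma gave -0.57 for CKM, -0.25 for SLC25A4 and -0.042 for COX8A. MB in P-IWP2 against P-DF on Day 12 was -0.0042 with limma. Between the days in P-IWP2, AK1 was -0.26 with library totals and -0.23 with limma, and the interaction of SLC6A8 was -0.0064 with library totals.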
